A study of Mus musculus with 2 samples.

Results

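The mitochondrial chromosome of the mouse carries 37 of the 43346 Ensembl genes measured here in CH12.LX, an immortalized B cell lymphoma line. All genes that the GENCODE annotation places on that chromosome were taken, whatever their level, and they comprise 13 protein genes, 2 rRNA genes and 22 tRNA genes. Polyadenylated RNA was sequenced single end in 2 libraries, which the labels call biological replicates 2 and 1 and tie to separate biosamples. Both come from cells of the strain B10.H-2aH-4bp/Wts labelled female, and the labels name no treatment. No second condition or line was measured, so the comparison is between replicate 2 and replicate 1, and with 1 library on each side no p-value is given. Replicate 2 held 25701557 expected counts over Ensembl genes and replicate 1 held 22986749.

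Each mitochondrial strand is transcribed from end to end into a long precursor, and tRNAs that lie between the other genes are cut out of it to free mRNAs and rRNAs. The mRNAs encode core subunits of complexes I, III, IV and V of oxidative phosphorylation, while all other subunits and the machinery of mitochondrial transcription are encoded in the nucleus. Most mitochondrial mRNAs end in short poly(A) tails, which in some of them complete the stop codon. Insertions of mitochondrial DNA into nuclear chromosomes leave pseudogenes whose letters can equal those of the mitochondrial gene.

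The annotated sequences show how tightly the genes are packed, and they are given here because overlapping and repeated stretches bear on the counts of single genes. In the GENCODE M21 transcripts on GRCm38, mt-Atp8 and mt-Atp6 overlap by 43 bases and mt-Nd4l and mt-Nd4 by 7 bases, each pair on the plus strand of chromosome M. The stretches below end at the stop codon of the upstream gene, and capitals mark the bases that both genes share. They are chrM:7910-7969 and chrM:10114-10173.
mt-Atp8 end with mt-Atp6 start: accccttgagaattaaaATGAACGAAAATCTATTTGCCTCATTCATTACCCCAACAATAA
mt-Nd4l end with mt-Nd4 start: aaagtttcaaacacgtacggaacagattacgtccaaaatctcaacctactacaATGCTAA
Of the 13 protein genes, 10 end in a complete stop codon and 3, mt-Co3, mt-Nd4 and mt-Cytb, end in a single T of an incomplete one. The last 30 bases of mt-Cytb (chrM:15259-15288, plus strand) show such an end, with the T in capitals.
end of mt-Cytb: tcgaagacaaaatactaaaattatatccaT

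A block of chromosome 1 repeats part of the mitochondrial chromosome. Between 24611535 and 24616197 on the minus strand, a span of 4663 bases, the annotation holds 7 unprocessed pseudogenes with at least 97.2% of their 36-base words in mitochondrial transcripts. The next closest nuclear gene, Gm13341 on chromosome 2, shared 44.0% and fell under the 50% needed to be called a copy. Read along that strand the copies correspond to mt-Co1 (Gm29216), mt-Co2 (Gm28661), mt-Atp6 (Gm10925), mt-Co3 (Gm28437), mt-Nd3 (Gm28438), mt-Nd4l (Gm10222) and mt-Nd4 (Gm28439), the order of the mitochondrial genes themselves. The distances between them also matched the mitochondrial ones, with a shift of 1 base before Gm10222 and Gm28439. No copy of mt-Atp8 is annotated, and a gap of 233 bases stands at its place between Gm10925 and Gm28661. Those of mt-Co2 (681 bases), mt-Atp6 (678), mt-Co3 (783), mt-Nd4l (294) and mt-Nd4 (876) matched their gene at every annotated base. The copy of mt-Nd3 differed at 1 of 345 bases (T3C) and that of mt-Co1 at 6 of 492 (T1056A, C1057T, A1059G, A1060G, C1062A and A1066T), counted from 1 at the 5′ end of the mitochondrial gene with its base first. The starts of mt-Nd3 (chrM:9459-9518, plus strand) and of its copy (chr1:24613060-24613119, minus strand) show how little separates them, with the differing base in capitals.
mt-Nd3: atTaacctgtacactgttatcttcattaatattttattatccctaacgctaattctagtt
Gm28438: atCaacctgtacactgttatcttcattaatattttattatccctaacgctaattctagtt
For mt-Co1 the substitutions all lie where the annotated copy begins, shown for chrM:6381-6440 (plus strand) and chr1:24616138-24616197 (minus strand), again with differing bases in capitals.
mt-Co1: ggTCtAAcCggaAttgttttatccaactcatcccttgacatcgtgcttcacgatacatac
Gm29216: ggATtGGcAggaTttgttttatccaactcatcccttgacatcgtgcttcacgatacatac
The copy of mt-Co2 was distinguished from it only by its annotated end, which leaves out the stop codon (capitals; chrM:7657-7696, plus strand, against chr1:24614885-24614921, minus strand).
mt-Co2: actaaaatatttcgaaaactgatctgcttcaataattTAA
Gm28661: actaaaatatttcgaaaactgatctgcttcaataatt

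Of the 13 protein genes, 5 had almost no sequence of their own among annotated transcripts. The share of 36-base words found in no nuclear transcript was 0% for mt-Co2, 0.134% for mt-Co3, 0.464% for mt-Atp6, 1.15% for mt-Nd4l and 1.92% for mt-Nd3. It was 37.4% for mt-Nd4 and 40.3% for mt-Co1, and at least 86.0% for the other protein genes. Both rRNA genes had at least 97.9% and every tRNA gene had 100%.

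All 13 protein genes and both rRNA genes were detected, which here means at least 1 TPM (a level that the authors corrected for gene length and scaled to 1 common total per library) in both libraries. Of the 22 tRNA genes, 18 were. Over all Ensembl entries 27.4% passed the same threshold, which asks for more reads of a longer gene. For the short tRNA genes very few reads suffice, and mt-Ts2 passed with 1 count (3.21 TPM) in replicate 1. The 18 are thus not comparable with that share, and at 10 counts in both libraries 11 tRNA genes were detected. Protein genes held 93.4% of the mitochondrial counts in replicate 2 and 92.9% in replicate 1, or 729070 and 432214 expected counts. The rRNA genes held 6.38% in replicate 2 and 6.95% in replicate 1, and the tRNA genes 0.263% in replicate 2 and 0.124% in replicate 1. In bulk RNA, more mitochondria per cell and more RNA per mitochondrion cannot be told apart, nor can a change in either from a change in the rest of the transcriptome.

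Complex I, NADH dehydrogenase, takes 7 of the protein genes. Its core membrane subunit gene mt-Nd1 had 5859 TPM in replicate 2 and 3967 TPM in replicate 1, the highest of the 7 in each library. mt-Nd4, a proton-pumping subunit, had 2474 TPM in replicate 2 and 1705 TPM in replicate 1. mt-Nd4l, which overlaps it, had 2320 TPM in replicate 2 and 1288 TPM in replicate 1. These 3 were higher in replicate 2, as were the pumping subunit genes mt-Nd2 and mt-Nd5 and the membrane subunit gene mt-Nd6. mt-Nd2 had 1939 TPM in replicate 2 and 1744 TPM in replicate 1. mt-Nd5 had 1050 TPM in replicate 2 and 714 TPM in replicate 1. mt-Nd6 had 1118 TPM in replicate 2 and 860 TPM in replicate 1. The membrane subunit gene mt-Nd3 went the other way, with 241 TPM in replicate 2 against 1581 TPM in replicate 1.

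mt-Cytb, cytochrome b, is the only mitochondrial gene of complex III. It had 5669 TPM in replicate 2 and 3926 TPM in replicate 1, close to mt-Nd1 in each library. Complex IV, cytochrome c oxidase, has its 3 core subunits from mt-Co1, mt-Co2 and mt-Co3. mt-Co1, which encodes the catalytic subunit, had 9479 TPM in replicate 2 and 5317 TPM in replicate 1. mt-Co2, whose product takes electrons from cytochrome c, had only 513 TPM in replicate 2 and 148 TPM in replicate 1. mt-Co3, the remaining core subunit, had 2128 TPM in replicate 2 and 2448 TPM in replicate 1, so that the libraries differed little and in the opposite direction. ATP synthase, complex V, takes mt-Atp8 and mt-Atp6, which lie on 1 shared mRNA. mt-Atp8 led all protein genes at 16417 TPM in replicate 2 and 8851 TPM in replicate 1. mt-Atp6, whose product forms part of the proton channel, had 1871 TPM in replicate 2 and 804 TPM in replicate 1.

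The order by mean TPM was thus mt-Atp8, mt-Co1, mt-Nd1, mt-Cytb, mt-Co3, mt-Nd4, mt-Nd2, mt-Nd4l, mt-Atp6, mt-Nd6, mt-Nd3, mt-Nd5 and mt-Co2. Neighbours in that order overlapped in their range over the libraries, except mt-Cytb against mt-Co3 and mt-Nd5 against mt-Co2. The highest gene exceeded the lowest by 68.2-fold in replicate 2 and 59.8-fold in replicate 1. Within the shared mRNA the TPM of mt-Atp6 was 0.114 of that of mt-Atp8 in replicate 2 and 0.0909 in replicate 1. Within the other shared mRNA, mt-Nd4 stood at 1.07 times mt-Nd4l in replicate 2 and 1.32 times in replicate 1.

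**Figure D1:**
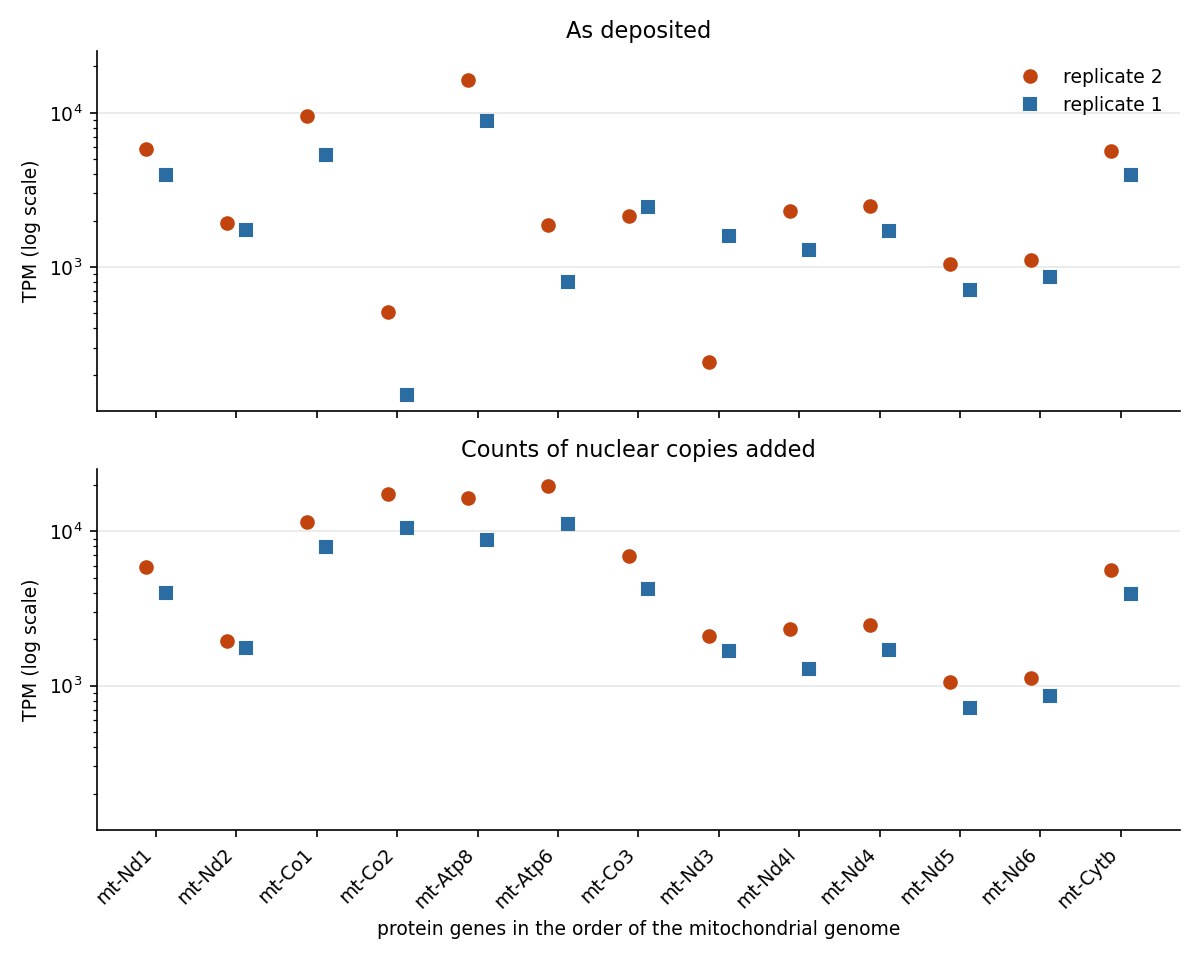
TPM of the 13 mitochondrial protein genes on a log axis, in the order of the chromosome, for replicate 2 (circles) and replicate 1 (squares), as deposited (top) and with the counts of nuclear copies added (bottom). mt-Co2, mt-Atp6 and mt-Nd3 stand far below their neighbours in at least 1 library in the top panel, and with copies added mt-Atp6 reaches 19768 TPM in replicate 2 and 11161 TPM in replicate 1.

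The deposited tables give, beside each count, a posterior mean and its standard deviation, which show how firmly reads could be assigned. For 9 of the 13 protein genes the posterior SD was under 1% of the posterior mean in both libraries. It was 66.2% in replicate 2 and 71.7% in replicate 1 for mt-Co2, and 67.2% in replicate 2 and 77.0% in replicate 1 for mt-Atp6. It was 62.7% in replicate 2 and 42.4% in replicate 1 for mt-Co3, and 24.4% in replicate 2 and 2.14% in replicate 1 for mt-Nd3. Thus 4 of 13 protein genes exceeded 5% in a library, against 76 (1.54%) of the 4941 genes that averaged 1000 counts or more. All 4 have a copy on chromosome 1, but so do mt-Co1, mt-Nd4l and mt-Nd4, whose posterior SD was under 1%. Both rRNA genes were under 1% and all 22 tRNA genes had a posterior SD of 0. For mt-Co2 the deposited TPM of 513 in replicate 2 and 148 in replicate 1 lay below the authors' own intervals. Those ran from 1414 to 14098 TPM in replicate 2 and from 787 to 7740 TPM in replicate 1. The values of mt-Atp6 lay inside its intervals, of 1740 to 13866 TPM in replicate 2 and 774 to 8496 TPM in replicate 1. A value outside its interval was not particular to uncertain genes. mt-Nd1, with a posterior SD of 0, had 5859 TPM in replicate 2, above its interval of 5488 to 5558 TPM.

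The copies themselves carried large counts. Gm10925, the copy of mt-Atp6, had 17981 TPM in replicate 2 and 10405 TPM in replicate 1. Gm28661, the copy of mt-Co2, had 17024 TPM in replicate 2 and 10413 TPM in replicate 1. By deposited TPM both exceeded mt-Atp8, the highest mitochondrial gene, in each library. Their assignment was uncertain, with a posterior SD of 37.5% in replicate 2 and 39.3% in replicate 1 for Gm10925. For Gm28661 it was 42.0% in replicate 2 and 37.8% in replicate 1. By posterior mean TPM both lay below mt-Atp8 in each library. In replicate 2 these were 12013 for Gm10925, 10121 for Gm28661 and 15479 for mt-Atp8, and in replicate 1 they were 6959, 6478 and 8294. Gm28437, the copy of mt-Co3, had 4826 TPM in replicate 2 and 1822 TPM in replicate 1. Gm28438, the copy of mt-Nd3, had 1872 TPM in replicate 2 and 92.8 TPM in replicate 1, so it was high where mt-Nd3 was low. Gm29216, the copy of part of mt-Co1, had 6627 TPM in replicate 2 and 8838 TPM in replicate 1. It was the only 1 of these 5 that was lower in replicate 2, while mt-Co1 was higher. Gm10222 and Gm28439, the copies of mt-Nd4l and mt-Nd4, had 6.36 TPM or less in each library. Together the 7 copies held 538095 counts (2.09% of the library) in replicate 2 and 306198 counts (1.33%) in replicate 1.

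The split between gene and copy differed strongly from gene to gene and between the libraries. mt-Nd3 held 11.5% of the counts of gene and copy in replicate 2 and 94.5% in replicate 1. mt-Co3 held 30.6% in replicate 2 and 57.4% in replicate 1, and mt-Co1 82.6% in replicate 2 and 66.7% in replicate 1. mt-Atp6 held 9.47% in replicate 2 and 7.21% in replicate 1, and mt-Co2 2.94% in replicate 2 and 1.41% in replicate 1. mt-Nd4 and mt-Nd4l kept at least 99.7% in each library although their copies are identical to them over the annotated length. By posterior mean counts, mt-Co2 held 38.8% in replicate 2 and 34.5% in replicate 1, and mt-Atp6 35.8% in replicate 2 and 33.8% in replicate 1. Whether any of these reads came from chromosome 1 was not tested. Identical sequences cannot be told apart, and reads over the few bases that differ for mt-Co1 and mt-Nd3 were not examined.

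**Figure D2:**
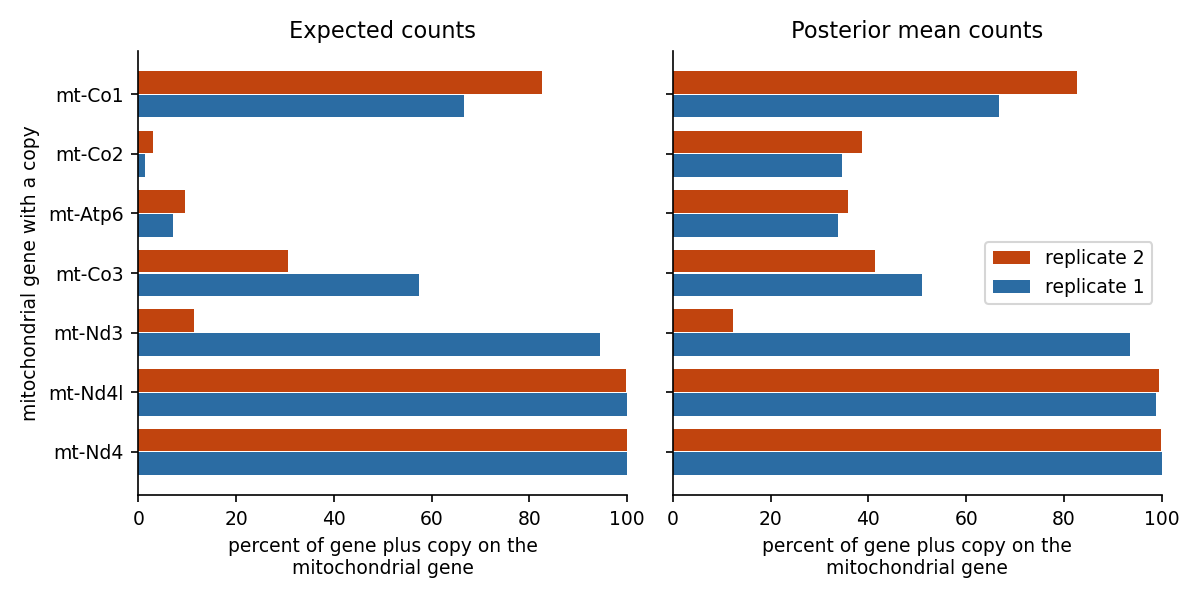
Percent of the counts of a mitochondrial gene and its chromosome 1 copy that the deposited tables place on the mitochondrial gene, by expected counts (left) and posterior mean counts (right), in replicate 2 (upper bar) and replicate 1 (lower bar). The share for mt-Nd3 is 11.5% in replicate 2 and 94.5% in replicate 1, and for mt-Co2 it is 2.94% and 38.8% in replicate 2 by the 2 estimates.

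Adding the counts of each copy to its gene, over the effective length of the gene, gave levels that varied less. mt-Atp6 with its copy reached 19768 TPM in replicate 2 and 11161 TPM in replicate 1. mt-Co2 with its copy reached 17457 TPM in replicate 2 and 10512 TPM in replicate 1. mt-Co1 reached 11470 TPM in replicate 2 and 7971 TPM in replicate 1. These 3 and mt-Atp8, which lie next to each other on the chromosome, then formed the top of the order, with mt-Co1 above mt-Co3 in both libraries without overlap. mt-Co3 with its copy had 6947 TPM in replicate 2 and 4267 TPM in replicate 1. mt-Nd3 with its copy had 2094 TPM in replicate 2 and 1673 TPM in replicate 1. The rest of the order was mt-Nd1, mt-Cytb, mt-Nd4, mt-Nd3, mt-Nd2, mt-Nd4l, mt-Nd6 and mt-Nd5. In it the ranges of mt-Cytb and mt-Nd4, and those of mt-Nd4l and mt-Nd6, did not overlap, while the other neighbours did. The highest exceeded the lowest by 18.8-fold in replicate 2 and 15.6-fold in replicate 1. On the shared mRNA, mt-Atp6 with its copy stood at 1.20 times mt-Atp8 in replicate 2 and 1.26 times in replicate 1.

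The shares of the complexes moved accordingly. As deposited, complex I genes held 32.5 ± 4.38% of the mitochondrial protein TPM, complex III 11.4 ± 0.474%, complex IV 23.7 ± 0.00276% and complex V 32.4 ± 4.85% (mean ± SD, n = 2). With copies added, complex I held 19.1 ± 1.81%, complex III 6.34 ± 0.496%, complex IV 38.4 ± 0.617% and complex V 36.2 ± 2.92%. By the mean, complex IV stood below complexes I and V as deposited and above both with copies added, although in replicate 2 complex V (38.3%) still exceeded complex IV (37.9%). Its close match between libraries as deposited joined a higher mt-Co1 to a lower mt-Co3 in replicate 2.

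Between the libraries the summed counts of the protein genes were higher in replicate 2 by 0.62 on the log2 scale after TMM scaling, which matches the libraries over the bulk of genes, and those of all 37 genes by 0.61, or 1.53-fold. At a threshold of 1.5-fold, 5 protein genes were higher in replicate 2 and 1 was lower, with 7 within. Of all 15340 genes with at least 10 counts, 5.83% were higher and 9.58% lower by that measure. Among the 4941 that averaged 1000 counts or more, as every mitochondrial protein gene did, 0.749% were higher and 0.971% lower. The median log2 ratio was 0.57 for the 13 protein genes and 0.01 for those 4941 genes. The genes above 1.5-fold were mt-Co2 (log2 ratio 1.81), mt-Atp6 (1.23), mt-Atp8 (0.91), mt-Nd4l (0.86) and mt-Co1 (0.85). mt-Nd1, mt-Nd5, mt-Nd4 and mt-Cytb had log2 ratios of 0.58, 0.57, 0.55 and 0.55, just under the threshold. mt-Nd6 had 0.39 and mt-Nd2 had 0.17. mt-Co3 had -0.19, and mt-Nd3 was the gene below the threshold at -2.70.

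With copies added, which was chosen after seeing the data, all 13 protein genes were higher in replicate 2. The log2 ratios then ran from 0.17 for mt-Nd2 to 0.91 for mt-Atp8, with an SD over the genes of 0.217, where the deposited counts gave -2.70 to 1.81 and an SD of 1.06. mt-Co3 with its copy had 0.72 and mt-Nd3 with its copy had 0.34. mt-Co2 had 0.75 and mt-Atp6 0.84. mt-Co1 had 0.54 with its copy and was then within 1.5-fold. The count was 5 higher, 0 lower and 8 within, and the median stayed at 0.57. The values for the 6 genes without an annotated copy, mt-Atp8 among them, are the same in both sets by construction. Unannotated copies were not looked for.

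**Figure D3:**
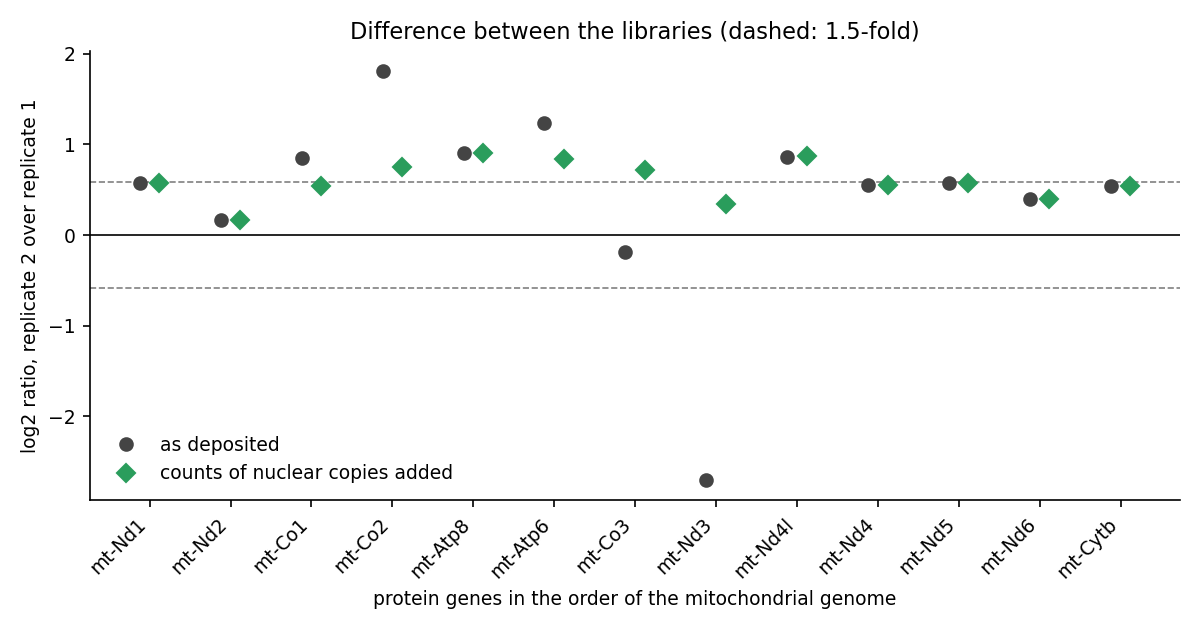
Log2 ratio of replicate 2 over replicate 1 for the 13 mitochondrial protein genes, from the deposited counts (circles) and with the counts of nuclear copies added (diamonds), with dashed lines at 1.5-fold. The deposited ratios run from -2.70 to 1.81, and with copies added they run from 0.17 to 0.91.

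mt-Nd6 is the sole protein gene on the minus strand, which it shares with 8 of the 22 tRNA genes. It held 1.34% of the protein counts in replicate 2, with a 95% Wilson interval of 1.31% to 1.36%. In replicate 1 it held 1.56%, with an interval of 1.53% to 1.60%. With copies in the total, it held 0.770% in replicate 2 and 0.914% in replicate 1. All minus-strand genes together held 1.47% of the mitochondrial counts in replicate 2 and 1.52% in replicate 1. Whether counting used the strand of reads is not given in the sources used here, so reads from the opposite strand of mt-Nd6 or of a tRNA gene cannot be told apart from its own. These intervals and those of the tRNA genes cover counting error only.

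The 12S rRNA gene mt-Rnr1 had 729 TPM in replicate 2 and 561 TPM in replicate 1. The 16S rRNA gene mt-Rnr2 had 1342 TPM in replicate 2 and 947 TPM in replicate 1. Both were higher in replicate 2 and within 1.5-fold, with log2 ratios of 0.40 and 0.52. mt-Rnr2 stood at 1.84 times mt-Rnr1 in replicate 2 and 1.69 times in replicate 1. Neither rRNA reached the TPM of mt-Nd1 or mt-Cytb in either library. By deposited TPM, however, mt-Rnr2 exceeded mt-Nd5, mt-Nd6 and mt-Co2 in both libraries, and mt-Rnr1 exceeded mt-Co2 in both. The RNA was selected for poly(A), and the effect of that on these levels was not tested.

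The tRNA genes held 2052 counts in replicate 2 and 576 in replicate 1. They are 59 to 75 bases long, while the labels give a size range above 175, and their effective lengths of 19 to 35 bases turn few reads into a high TPM. A single gene, mt-Te (glutamate), which lies directly beside mt-Nd6 on the same strand, held 64.2% of the tRNA counts in replicate 2 and 21.5% in replicate 1. It had 1317 counts in replicate 2 against 124 in replicate 1, or 2493 TPM in replicate 2 and 261 TPM in replicate 1, and a fold of 9.63 (exact 95% counting interval 8.03 to 11.7). Its sequence (chrM:14071-14139, minus strand) has all of its 36-base words in no nuclear transcript.
mt-Te: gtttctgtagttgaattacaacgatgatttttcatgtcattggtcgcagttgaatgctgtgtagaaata

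Of the 22 tRNA genes, 18 had the 10 summed counts needed for a ratio, and 9 of them were higher in replicate 2, 4 lower and 5 within 1.5-fold. Over all genes with a ratio 5.83% were higher and 9.58% lower. Low counts give more calls, and of the 5241 genes with a ratio that averaged under 100 counts, 14.8% were higher and 24.3% lower. Of the 15 tRNA genes in that range 7 were higher and 4 were lower, so the count of lower ones was near that share. On the minus strand all 8 had a ratio, and 6 were higher, 0 lower and 2 within. On the plus strand 10 of 14 had a ratio, and 3 were higher, 4 lower and 3 within.

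Besides mt-Te, 5 minus-strand genes were above 1.5-fold. mt-Ts1 (serine) had 168 counts in replicate 2 and 89 in replicate 1. mt-Ty (tyrosine) had 82 in replicate 2 and 10 in replicate 1, and mt-Tn (asparagine) had 64 in replicate 2 and 28 in replicate 1. mt-Tc (cysteine) had 40 in replicate 2 and 13 in replicate 1, and mt-Ta (alanine) had 22 in replicate 2 and 12 in replicate 1. mt-Tp (proline) had 15 counts in each library. Of the 6 that were higher, mt-Ta, mt-Tn, mt-Tc and mt-Ty form a cluster between mt-Nd2 and mt-Co1. mt-Ty differed most among them, with a fold of 7.16 (3.86 to 16.1). The interval for mt-Ta, at 0.790 to 3.70, included 1.

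On the plus strand mt-Tl1 (leucine), which lies between mt-Rnr2 and mt-Nd1, had the highest count, with 184 in replicate 2 and 115 in replicate 1. mt-Tg (glycine) had 60 in replicate 2 and 66 in replicate 1. Both were within 1.5-fold. Higher in replicate 2 were mt-Ts2 (serine; 17 counts in replicate 2, 1 in replicate 1), mt-Tk (lysine; 15 in replicate 2, 7 in replicate 1) and mt-Ti (isoleucine; 13 in replicate 2, 3 in replicate 1). Lower in replicate 2 were mt-Th (histidine; 10 counts in replicate 2, 37 in replicate 1) and mt-Tt (threonine; 13 in replicate 2, 22 in replicate 1). So were mt-Tm (methionine; 7 in replicate 2, 13 in replicate 1) and mt-Tw (tryptophan; 4 in replicate 2, 9 in replicate 1). Only mt-Th of these 4 had an interval below 1 (0.109 to 0.504), while 7 of the 9 genes called higher had one above 1. The 7 tRNA genes with fewer than 10 counts in each library had 0 to 9 counts, and mt-Tf (phenylalanine) had 0 in both. A limit of 3 counts allows mt-Tf up to 5.88 TPM in replicate 2 and 6.54 TPM in replicate 1.

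Summed by the annotated strand of the gene, which need not be that of the reads, minus-strand tRNA genes had 1714 counts in replicate 2 and 297 in replicate 1, a fold of 5.24 that became 2.08 without mt-Te. Plus-strand tRNA genes had 338 counts in replicate 2 and 279 in replicate 1, a fold of 1.10. mt-Nd6, on the same strand as mt-Te, had a fold of 1.31. Over all tRNA genes the log2 ratio was 1.70. Without mt-Te, left out after seeing the data, it was 0.56, beside 0.62 for the protein genes. That 0.56 joined unlike values, 1.06 for the other minus-strand tRNA genes and 0.14 for the plus-strand ones.

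**Figure D4:**
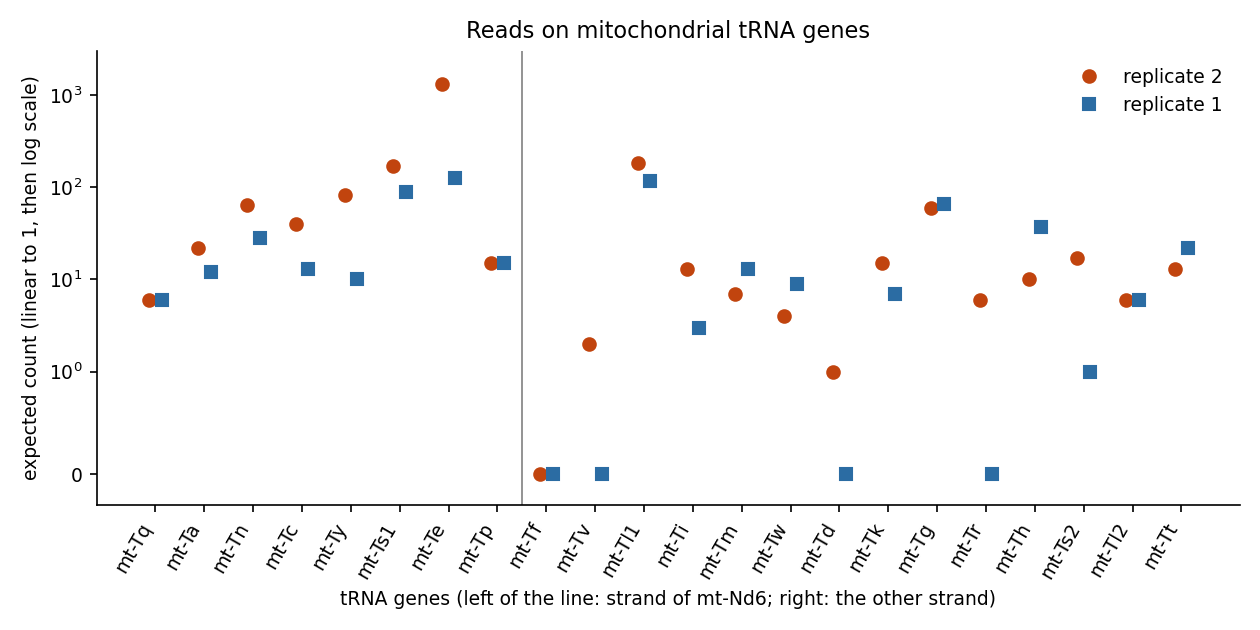
Expected counts of the 22 mitochondrial tRNA genes (axis linear up to 1, then logarithmic) in replicate 2 (circles) and replicate 1 (squares), with the strand of mt-Nd6 left of the line and the other strand right of it. mt-Te stands apart with 1317 counts in replicate 2, and 6 of 8 genes on the left are at least 1.5-fold higher there.

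Nuclear genes that work with the mitochondrial ones were set beside them. Of 17 genes of mitochondrial DNA transcription and maintenance, all were detected, and 0 were higher and 0 lower by 1.5-fold, with a median log2 ratio of -0.05. The highest were the DNA-binding protein gene Ssbp1 (85.7 TPM in replicate 2, 111 in replicate 1) and the transcription and packaging factor gene Tfam (79.5 in replicate 2, 94.96 in replicate 1). The DNA polymerase gene Polg (66.3 in replicate 2, 72.9 in replicate 1) and the RNA polymerase gene Polrmt (36.5 in replicate 2, 31.4 in replicate 1) followed. Of 24 genes of mitochondrial RNA processing, polyadenylation and decay, all were detected, and 0 were higher and 0 lower, with a median of 0.04. They were led by the exonuclease gene Rexo2 (212 TPM in replicate 2, 193 in replicate 1) and the mRNA-stabilizing Slirp (190 in replicate 2, 210 in replicate 1). The FASTK family gene Tbrg4 (139 in replicate 2, 131 in replicate 1) and the RNA granule gene Grsf1 (71.7 in replicate 2, 98.2 in replicate 1) came next.

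Of 20 nuclear partners of the same complexes, all were detected, 1 was higher and 0 were lower, with a median of -0.03. The 1 gene was Cox7c, a small subunit of complex IV, with 295 TPM in replicate 2 and 192 in replicate 1, or 1.54-fold. The ATP synthase genes Atp5b (1215 TPM in replicate 2, 1183 in replicate 1) and Atp5a1 (719.6 in replicate 2, 701 in replicate 1) were the highest. The complex IV genes Cox6c (681 in replicate 2, 566 in replicate 1) and Cox4i1 (523 in replicate 2, 519.7 in replicate 1) followed. The 20 partners summed to 6358 TPM in replicate 2 and 6231 TPM in replicate 1, against 51076 TPM in replicate 2 and 33353 TPM in replicate 1 for the 13 mitochondrial protein genes. All 3 lists come from textbook roles and hold 61 genes, of which 1 (1.64%) passed 1.5-fold. Of the 61, 41 averaged 1000 counts or more, and 1 of these (2.44%) was higher. In that range 0.749% of all genes were higher and 0.971% lower. For these 41 the share was thus near that of genes of like abundance, and the less abundant list members were not set beside a range of their own.

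The labelled cell type was checked with marker genes. The B cell markers Cd79a, Cd79b, Ms4a1, Pax5 and Ebf1 were all detected. The highest of these was the B cell receptor component gene Cd79b, with 545 TPM in replicate 2 and 525 TPM in replicate 1. The lowest was the transcription factor gene Pax5, with 36.3 TPM in replicate 2 and 27.5 TPM in replicate 1. Of 3 T cell markers, Cd3e was under 1 TPM in both libraries. Cd3g and Cd3d were detected by the threshold of 1 TPM but did not exceed 2.11 TPM. The T cell list summed to 3.82 TPM in replicate 2 and 2.87 TPM in replicate 1. The myeloid markers Lyz2 and Csf1r summed to 0.75 TPM in replicate 2 and 0.70 TPM in replicate 1. The erythroid marker Hbb-bs had 0 counts in both libraries.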

How the data were processed

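A gene table of each library, on mm10 and GENCODE M4 per the deposited notes, was used. Aligner, quantifier and any use of read strand are not given in the sources used. Deposited expected counts and posterior mean counts are estimated read counts in which reads shared by several genes are divided. The deposited TPM and FPKM values are corrected by the authors for length and scaled to each library. The TPM interval bounds, a signal that is never negative, are also the authors'. For all 37 members the effective length was 40 bases below the annotated length.

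Names, types, strands and sequences came from GENCODE M21 on GRCm38, the assembly of mm10, which named 42462 of 43346 Ensembl entries. A further 26248 entries with only a number as identifier (0.0539% of counts in replicate 2 and 0.0426% in replicate 1) and 97 spike-in entries were left out. Members and gene lists were chosen with earlier results of these data known.

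Expected counts were rounded to whole numbers, scaled by TMM (edgeR 4.0.16) to the mean effective library, and a log2 ratio was taken with a pseudocount of 0.5 for genes with at least 10 counts summed. DESeq2 1.42.0 gave alternative size factors. With 1 library on each side no count model was fitted. Nothing beyond the labels says whether the biosamples were separate cultures, so the SD over n = 2 may be partly technical. The ratio was tested on simulated data without reads shared between genes, so that test says nothing about the split between gene and copy. Nuclear copies are genes with at least 50% of 36-base words in transcripts of the mitochondrial genes, which stood in for the mitochondrial genome. TPM of gene and copy together used the effective length of the mitochondrial gene and the scale of mt-Nd1. Shares of 1 library have Wilson 95% intervals and folds of tRNA genes exact binomial ones, for counting error only, and a count of 0 was bounded with 3 counts.

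All members were accounted for, with values for the 13 protein genes, the 2 rRNA genes, tRNA genes with at least 10 counts in a library, copies with a mean of at least 100 TPM, and of each nuclear list the 4 highest and any past 1.5-fold. mt-Tw, Gm10222, Gm28439 and Gm13341 were named after their values were seen. Some cell type markers are not reported here. Prorp was matched as 1110008L16Rik. Alternatives covered the estimate, copies, scaling, filter, pseudocount, threshold and each replicate left out.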

Additional observations from a re-analysis of the deposited data

How the results depend on the processing

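Adding the nuclear copies or changing the estimate moved most. The mean mitochondrial share of counts, 2.53%, was 4.24% with copies added and 4.65% as a share of TPM. Of the 13 places in the order of levels, 2 stayed under posterior mean TPM, 1 with copies added per kilobase, and 6 to 8 when 1 replicate was left out. The mt-Nd6 share of protein counts was 1.24% by posterior means, 2.38% by TPM and 0.842% with copies added, where it was 1.45%. The rRNA share was 5.75% by posterior means and 3.91% by TPM, where it was 6.67%. By posterior mean TPM, complexes I, III and IV held 26.8%, 9.45% and 29.2%. Without the 4 uncertain genes, complex III held 13.0% and complex IV 19.6%. With copies added, complexes I, III and IV held 19.1%, 6.34% and 38.4%. At 10 counts in both libraries 11 tRNA genes were detected. At 2-fold, 11 genes were called, 8 higher and 3 lower. The share of all genes past 2-fold is not given here, so these counts have no background beside them. The summed log2 ratio of 0.62 was 0.59 with library totals, 0.68 with posterior means and 0.64 with copies added. With copies added mt-Co3 (0.72) and mt-Nd3 (0.34) turned positive and mt-Co1 (0.54) dropped within 1.5-fold. By posterior means mt-Co3 was also positive, at 0.41. The cause of these shifts was not tested beyond the construction of each alternative. Adding copies to single ratios, to the mt-Nd6 share and to the complexes, and leaving out mt-Te, were chosen after seeing the data. With 1 replicate left out, ranges were 2.02% to 3.04% for the mitochondrial share, 1.34% to 1.56% for mt-Nd6, 6.38% to 6.95% for rRNA, 29.4% to 35.6% for complex I, 28.9% to 35.8% for complex V and 33 to 36 genes detected. Library totals shifted ratios by -0.02 on the log2 scale. TMM, DESeq2 size factors and totals each gave 14 higher and 5 lower of the 33 members with a ratio. With TMM, 9 of the higher and 4 of the lower were tRNA genes, most of them with low counts. Of all 15340 genes with a ratio, TMM gave 894 higher and 1469 lower. DESeq2 size factors gave 892 and 1474, and totals gave 846 and 1549. No paired analysis was possible because both libraries form 1 group. Low counts limit what can be said of the tRNA genes, most of which have under 100 counts. The cause of these low counts was not tested.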
